A study of Mus musculus with 50 samples.

Results

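The subcortical maternal complex is a protein assembly of the mouse egg, and 6 genes that encode its members were followed here: Nlrp5, Ooep, Tle6, Khdc3, Padi6 and Zbed3. They were taken by gene symbol from a table of 35750 genes, and all 6 were present. In uninjected embryos 5 of the 6 fell between the early and the late 2-cell stage, where 26.6% of all tested genes fell and 56.9% were called in either direction. Those 5 were higher at the late 2-cell stage in embryos that had received Duxbl mRNA than in embryos that had received mCherry mRNA, a comparison in which 26.8% of tested genes were higher and 55.9% were called.

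As background, the complex lies under the surface of the egg and of the outer cells of the cleaving embryo, and it is loaded into the egg as protein and RNA during oocyte growth. NLRP5 (also called MATER), OOEP (FLOPED) and TLE6 form its core, KHDC3 (FILIA) binds to that core, and PADI6 and ZBED3 associate with it. Female mice that lack Nlrp5, Ooep, Tle6 or Padi6 produce embryos that stop dividing in early cleavage, which makes these genes textbook maternal-effect genes. Maternal RNAs of this kind are removed as the embryo switches to its own transcription.

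Wild-type C57BL6/J embryos came from superovulated females aged 3 to 12 weeks mated with males of that strain. Zygotes were left uninjected, or were injected 24 h after human chorionic gonadotropin (hCG) with 200 ng/µl of NLS-mCherry mRNA (mCherry embryos), a nuclear fluorescent protein that serves as injection control, or with 200 ng/µl of Duxbl-V5-2A-NLS-mCherry mRNA (Duxbl embryos), which encodes the homeobox factor DUXBL with a V5 tag and the same fluorescent protein. Embryos were harvested 28 to 30 h after hCG as late 1-cell embryos (late 1C), at 32 h as early 2-cell embryos (early 2C) or at 48 h as late 2-cell embryos (late 2C). Uninjected and mCherry embryos gave 6 libraries at each stage, and Duxbl embryos gave 4, 5 and 5, for 50 libraries in 9 groups, each library being made from a pool of 5 embryos. The injected RNA adds to the embryo's own Duxbl, so the Duxbl embryos are a gain of the factor and carry no deletion. Nothing in the labels says whether libraries came from separate litters, so p-values measure the spread between these pools, which may be technical.

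Deposited values summed to between 12.04 and 26.96 M per library. Levels are given as CPM, meaning deposited values per M of a library's scaled total (its total times a trimmed-mean factor). They are thus relative levels of polyadenylated RNA, neither exact shares of a library nor amounts per embryo. In such pools fewer cells and less RNA per cell cannot be told apart. Duxbl1, the gene under which the table lists the injected factor, was at 3456 to 4799 CPM in Duxbl embryos at late 1C, at 1435 to 3983 CPM at early 2C and at 1409.8 to 4557 CPM at late 2C, against 82.4 to 635 CPM over all uninjected and mCherry libraries. A list of 6 egg markers (Zp3, Gdf9, Bmp15, Zar1, Mos and Btg4) summed to 5293 to 8873 CPM in uninjected late 1C embryos. Other lists differed alongside the members at late 2C: the egg list summed to 4231 to 7456 CPM in Duxbl and 937 to 2269 CPM in mCherry embryos, and 7 genes of the 2-cell stage summed to 6.46 to 157 CPM and 335 to 1953 CPM. Btg4 (mean 3667 CPM against 893 CPM) and Bmp15 (1673 CPM against 303 CPM) carried most of the egg sum. Gdf9, Zar1 and Mos also had higher means in Duxbl embryos, while Zp3 had a lower one (53.2 CPM against 91.4 CPM). At late 2C the summed level of 6 oviduct genes, all in the table, was 24.8 to 100.1 CPM in Duxbl embryos and 5.2 to 12.9 CPM in mCherry embryos. Ovgp1 carried most of that sum (mean 52.1 CPM against 5.82 CPM), while Foxj1 was at 0.0588 CPM against 0.131 CPM. Cumulus and granulosa genes (9 of 10 in the table) summed to 14.1 to 54.6 CPM against 10.4 to 17.6 CPM, with Inha at 0 in both groups. Cyp19a1 (mean 18.2 CPM against 3.85 CPM) and Has2 (6.06 CPM against 0.86 CPM) carried most of the difference. Tnfaip6 (1.91 CPM against 6.11 CPM) and Ptgs2 (0.0201 CPM against 0.814 CPM) had lower means in Duxbl embryos. Sperm genes (7 of 7) summed to 4.08 to 31.6 CPM against 3.13 to 9.42 CPM, with Smcp at 0 in the mCherry group. Prm2 had a higher mean in Duxbl embryos (10.3 CPM against 0.612 CPM), while Prm1 (0.0882 CPM against 1.3 CPM), Tnp1 (0.928 CPM against 3.14 CPM) and Odf1 (0.01 CPM against 0.605 CPM) had lower ones. Blood genes (4 of 6) summed to 0 to 13.1 CPM against 25.3 to 41.7 CPM. The part of these other markers in the results below was not tested.

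In mm39, the build of the deposited table, Nlrp5 (ENSMUSG00000015721) lies at chr7:23085314-23141347 on the plus strand, Ooep (ENSMUSG00000032346) at chr9:78283391-78286007 on the minus strand and Tle6 (ENSMUSG00000034758) at chr10:81426738-81436907 on the minus strand. Khdc3 (ENSMUSG00000092622) lies at chr9:73009118-73011720 on the plus strand, Padi6 (ENSMUSG00000040935) at chr4:140454666-140469954 on the minus strand and Zbed3 (ENSMUSG00000041995) at chr13:95460120-95474349 on the plus strand. All 6 are annotated as protein-coding. The small genes Snora47 and Gm22661 lie within Zbed3 on the same strand, so their reads could be credited to either gene. Nlrp5 also has an annotated pseudogene, Nlrp5-ps, whose reads might be shared with it.

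Because 5 members moved together, the 250 bases before their annotated starts are given here from the RefSeq table of promoters on GRCm38.p6, a different build from that of the deposited table. Each sequence runs 5′ to 3′ along the gene's own strand and ends at the base before the start. RefSeq starts matched by symbol gave 10 such windows for the 6 genes. Capitals mark 2 short motifs searched on both strands: the element bound by NOBOX (TAATTG or TAATTA) and the E-box of the FIGLA type (CACCTG), NOBOX and FIGLA being transcription factors of the growing oocyte. Khdc3, the member that did not pass the test at late 2C, is set beside 4 that did. Every window printed holds a marked motif. The windows of Tle6, which hold none, and the further windows of Nlrp5 and Zbed3 are not printed.
Nlrp5, chr7:23385639-23385888, plus strand: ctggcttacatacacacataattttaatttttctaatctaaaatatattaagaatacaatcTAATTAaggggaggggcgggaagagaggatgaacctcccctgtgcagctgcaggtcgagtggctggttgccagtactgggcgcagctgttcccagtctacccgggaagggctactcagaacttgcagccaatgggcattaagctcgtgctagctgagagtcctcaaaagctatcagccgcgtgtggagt
Ooep, chr9:78378589-78378838, minus strand: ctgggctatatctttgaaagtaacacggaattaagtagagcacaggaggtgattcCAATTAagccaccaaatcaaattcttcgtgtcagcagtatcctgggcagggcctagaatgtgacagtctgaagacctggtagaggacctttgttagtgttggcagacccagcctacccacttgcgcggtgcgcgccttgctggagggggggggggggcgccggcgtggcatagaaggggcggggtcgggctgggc
Padi6, chr4:140742644-140742893, minus strand: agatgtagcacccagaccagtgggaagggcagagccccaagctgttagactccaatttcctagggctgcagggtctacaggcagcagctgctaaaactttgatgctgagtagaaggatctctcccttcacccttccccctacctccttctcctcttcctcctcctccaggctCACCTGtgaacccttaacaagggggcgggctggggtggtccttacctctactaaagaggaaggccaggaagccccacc
Zbed3, chr13:95323355-95323604, plus strand: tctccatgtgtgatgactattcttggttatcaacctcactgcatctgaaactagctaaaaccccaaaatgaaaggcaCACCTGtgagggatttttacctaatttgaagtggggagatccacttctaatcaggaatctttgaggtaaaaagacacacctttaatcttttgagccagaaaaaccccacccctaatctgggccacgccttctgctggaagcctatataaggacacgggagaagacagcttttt
Khdc3, chr9:73102148-73102397, plus strand: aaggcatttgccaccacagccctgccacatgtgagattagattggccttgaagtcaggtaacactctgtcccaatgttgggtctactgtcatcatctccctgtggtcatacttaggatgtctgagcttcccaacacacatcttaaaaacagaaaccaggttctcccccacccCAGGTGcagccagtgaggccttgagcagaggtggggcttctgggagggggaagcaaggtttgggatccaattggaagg

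The NOBOX element was in 2 of the 10 windows, 189 bases before the start of Nlrp5 and 195 bases before that of Ooep, and in 11.3% of all 32851 windows of this length. CACCTG was in 4 of the 10 windows, those of Khdc3, Padi6 and Zbed3, and in 17.2% of all windows. The broader E-box CANNTG, which includes CACCTG, was in 10 of 10 windows and in 66.2% of all. TATAAA, also searched on both strands, was in 2 of 10 windows and in 12.4% of all. Those 2 were windows of Nlrp5 and Zbed3 that are not printed, with matches on the strand opposite to the gene. GATTNAATC, the core of the motif of the related factor Dux, was in 0 of 10 windows and in 0.247% of all. Khdc3, Padi6 and Zbed3 carried CACCTG and no NOBOX element, Nlrp5 and Ooep carried the NOBOX element and no CACCTG, and Tle6 carried neither. These are matches of letters only and were not tested for binding.

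The 6 genes differed widely in level before the late 2-cell stage. Per kilobase of annotated exon, which allows genes to be compared, Zbed3 was highest in uninjected late 1C embryos at 2253 ± 722 CPM per kb (mean ± SD, n = 6). Ooep followed at 524 ± 72.1 CPM per kb and Padi6 at 171 ± 28.9 CPM per kb. Tle6 at 109.9 ± 35.3 CPM per kb and Nlrp5 at 109 ± 24.8 CPM per kb did not differ beyond their spread, and Khdc3 was lowest at 17.5 ± 11.1 CPM per kb. Zbed3 alone made up 66.2% of the summed CPM of the 6 genes in that group (57.8% to 71.4% over its libraries). By late 2C in uninjected embryos the order was Zbed3 (383 ± 136 CPM per kb), Ooep (43.9 ± 27.5), Padi6 (35.6 ± 6.81), Tle6 (19.6 ± 8.73), Nlrp5 (13.2 ± 5.7) and Khdc3 (4.94 ± 1). The ranges of mean ± SD then overlapped between Ooep and Padi6, and between Tle6 and Nlrp5.

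**Figure D1:**
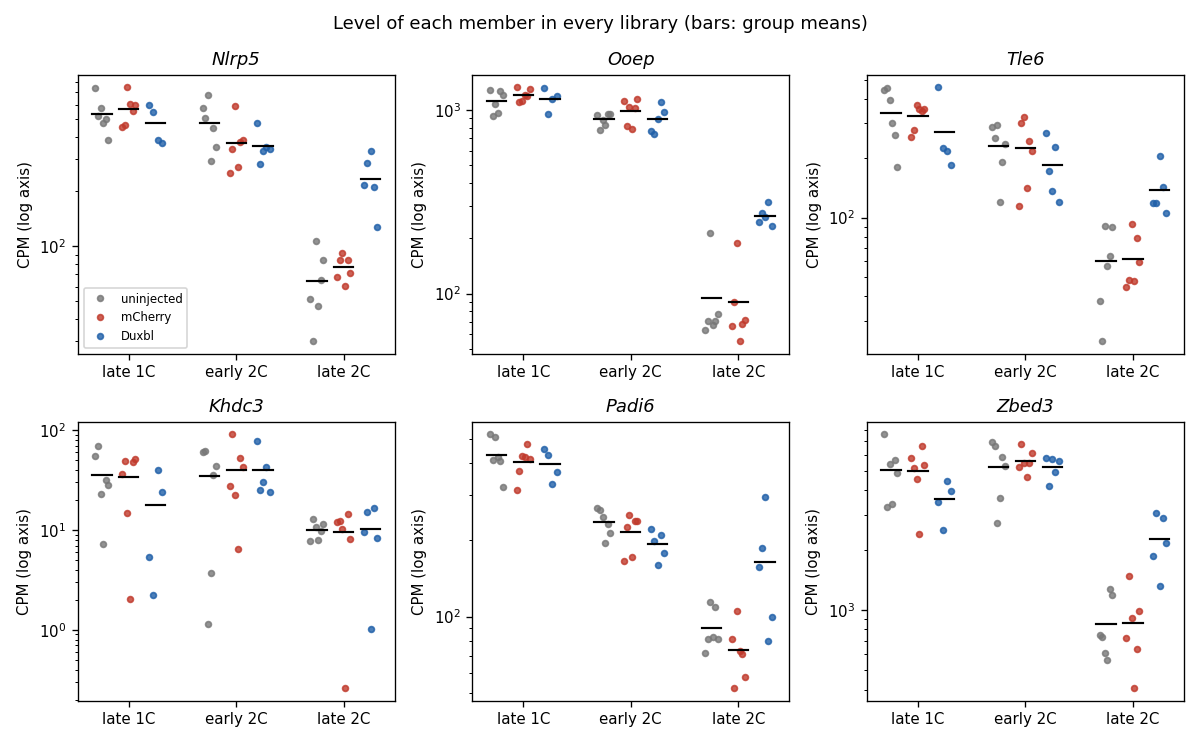
Level of each member in all 50 libraries. Each point is 1 library (pool of 5 embryos), the vertical axis is CPM on a log scale, the horizontal axis is the stage, colours are the treatments and bars are group means. At late 2C the Duxbl libraries of Ooep sit at 234 to 315 CPM, above the mCherry libraries at 55.1 to 189 CPM. Those of Khdc3 at 1.03 to 16.6 CPM overlap the mCherry libraries at 0.263 to 14.4 CPM.

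From late 1C to early 2C, Padi6 fell and no member of the core was called. Each change here is a difference of log2(CPM + 1) with its standard error, from a limma model of all 9 groups, and a gene was called when its Benjamini-Hochberg adjusted p over all tested genes was below 0.05; the scale understates changes of low genes. Padi6, a member of the peptidylarginine deiminase family that is needed for the cytoplasmic lattices of the egg, was the 1 member of 6 called in each treatment, where 2.93% of all tested genes were called and 1.81% were lower in uninjected, 1.29% and 0.736% in mCherry, and 0.868% and 0.785% in Duxbl embryos. In uninjected embryos it ranged from 322 to 519.9 CPM at late 1C (median 418) and from 195 to 267 CPM at early 2C (median 239), with no overlap. Its fall was -0.86 ± 0.19 (adjusted p = 0.00287), and the corresponding values were -0.92 ± 0.19 (adjusted p = 0.00296) in mCherry and -1.03 ± 0.22 (adjusted p = 0.00684) in Duxbl embryos. Without the libraries numbered 4 and 5, which are described further below, the call was lost in uninjected (-0.76, adjusted p = 0.0621) and Duxbl embryos (-0.79, adjusted p = 0.438), while over all alternatives the adjusted p ran from 0.000222 to 0.0621 and from 0.000602 to 0.438. The other 5 members had differences of -0.66 to 1.61 over the 3 treatments, and none was called.

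Between early and late 2C, 5 of the 6 members fell in uninjected embryos, beside 26.6% of all tested genes that fell and 56.9% that were called in either direction. Ooep, whose KH-type protein is part of the core, went from 780.3 to 953 CPM (median 909) to 62.9 to 214 CPM (median 71.1), a difference of -3.38 ± 0.2 (adjusted p = 1.97e-20). Nlrp5, the NLR-family protein of the core, went from 293 to 681 CPM (median 476) to 30.1 to 107 CPM (median 58.1), a difference of -2.93 ± 0.23 (adjusted p = 3.22e-16). For neither gene did any late library reach the lowest early one. Zbed3, a zinc-finger protein implicated in spindle position in the mouse zygote, fell from 2738 to 6989 CPM (median 5559.7) to 559.7 to 1272 CPM (median 744), a difference of -2.6 ± 0.25 (adjusted p = 3.22e-13). Tle6, a relative of the Groucho co-repressors, fell from 120.3 to 293 CPM (median 244) to 23.7 to 90.8 CPM (median 60.3), a difference of -1.99 ± 0.28 (adjusted p = 1.75e-08). Padi6 fell further, from 195 to 267 CPM to 71.7 to 114 CPM (median 82.2), a difference of -1.39 ± 0.19 (adjusted p = 9.52e-09). Group means at late 2C were 10.6% (Ooep) to 38.3% (Padi6) of those at early 2C among these 5 genes, so Padi6, which had begun to fall earlier, had the smallest change in this interval.

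Khdc3, which encodes the KH-domain protein FILIA, was the exception in uninjected embryos. Its early 2C libraries ranged from 1.14 to 61.8 CPM (median 39.7) and its late 2C libraries from 7.8 to 13 CPM (median 10.3), so the groups overlapped, with a difference of -0.87 ± 0.72 (adjusted p = 0.317). The 2 low early libraries were those numbered 4 and 5, and without all libraries of those numbers the difference was -2.14 ± 0.34. Those numbers were singled out with the Khdc3 values known, so this value is a description and no test of the fall. Leaving out only uninjected early 2C library 4 gave -1.58 (adjusted p = 0.0494), and the adjusted p reached 0.583 at most over 21 alternatives.

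In mCherry embryos 6 of 6 members fell over the same interval, where 26.7% of tested genes fell and 57.2% were called. The differences were -3.56 ± 0.2 for Ooep, -2.8 ± 0.25 for Zbed3, -2.21 ± 0.23 for Nlrp5, -1.79 ± 0.28 for Tle6 and -1.55 ± 0.19 for Padi6. Khdc3 changed by -1.93 ± 0.72 (adjusted p = 0.019). That call was lost without mCherry early 2C library 3 (-1.69, adjusted p = 0.0517) or without mCherry late 2C library 5 (-1.39, adjusted p = 0.0974), and with library totals as the only scaling (-1.57, adjusted p = 0.0618), and was as low as 6.67e-06 under another of the 21 alternatives. At late 2C the member levels of the 2 control groups lay side by side: mCherry Ooep ranged from 55.1 to 189 CPM (median 69.9) and mCherry Nlrp5 from 60.7 to 92.1 CPM (median 77.6).

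The injection itself gave no called difference in any member. In limma fits of the 3 groups of each stage, mCherry and uninjected embryos differed in 0 of 6 members at any of the 3 stages, where 0% of all tested genes were called at each stage. Unadjusted p was below 0.05 for 564, 781 and 383 genes at the 3 stages, none of them a member, and limma with voom weights also called 0 genes at each. The largest member differences were 0.67 ± 0.82 for Khdc3 at early 2C and -0.39 ± 0.55 for Khdc3 at late 2C. Among the other 5 genes they ran from -0.37 ± 0.2 (Nlrp5, early 2C) to 0.36 ± 0.28 (Nlrp5, late 2C), so a difference of this size in Nlrp5 could not be told from the spread between pools.

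The main question of the design is what added Duxbl does to the embryo's RNA. At late 1C, 0 of 6 members differed between Duxbl and mCherry embryos in limma, where 0.0193% of tested genes (4 of 20777) were called and 1195 genes had an unadjusted p below 0.05. At early 2C it was again 0 of 6, where 0.42% were called and 1011 genes had an unadjusted p below 0.05. With voom weights 1 and 4 genes were called, again none of them a member. The lowest unadjusted member p was 0.121 at late 1C and 0.26 at early 2C. Member levels at early 2C were alike in range: Nlrp5 was at 474, 284, 334, 351 and 342 CPM in the 5 Duxbl libraries and at 253 to 586 CPM (median 359) in mCherry embryos, a difference of -0.01 ± 0.21. Ooep was at 765, 742, 889, 1112 and 976 CPM against 785 to 1152 CPM (median 1034), a difference of -0.14 ± 0.12. Zbed3 was at 5760.3, 4194, 5749.9, 4916 and 5571 CPM against 4645 to 6775 CPM (median 5454), a difference of -0.1 ± 0.18.

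At late 2C, 5 of 6 members were higher in Duxbl than in mCherry embryos, beside 26.8% of tested genes that were higher and 55.9% that were called in either direction. The median difference over the 6 members was 1.3, and that over all tested genes was -0.05. Ooep was at 244, 273, 262, 315 and 234 CPM in Duxbl embryos and at 55.1 to 189 CPM (median 69.9) in mCherry embryos. All 5 Duxbl libraries lay above every mCherry library, and the difference was 1.68 ± 0.31, or 3.19-fold (adjusted p = 9.83e-05). Nlrp5 was at 216, 286, 333, 211 and 128 CPM against 60.7 to 92.1 CPM (median 77.6). Again the groups did not overlap, with a difference of 1.54 ± 0.29, or 2.92-fold (adjusted p = 0.000118). Tle6 was at 119, 119, 205, 143 and 105 CPM against 44.5 to 93 CPM (median 54.1), without overlap, a difference of 1.16 ± 0.32, or 2.23-fold (adjusted p = 0.00383). The RNAs of the whole core of the complex were thus at a higher relative level in Duxbl embryos at this stage.

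Of the associated members, Zbed3 was at 1873, 3075, 1323, 2890.2 and 2181 CPM in Duxbl embryos against 408 to 1485 CPM (median 819.5) in mCherry embryos. A single Duxbl library, at 1323 CPM, lay within the mCherry range, and the difference was 1.45 ± 0.29, or 2.72-fold (adjusted p = 0.000182). Padi6 was at 156, 186, 296, 80.4 and 99.5 CPM against 52.5 to 105 CPM (median 72.6). Its groups overlapped, since 2 Duxbl libraries lay below 105 CPM, and the difference was 1.02 ± 0.29, or 2.03-fold (adjusted p = 0.00427). With library totals as the only scaling, Padi6 lost its call (0.71 ± 0.31, adjusted p = 0.0592), a scaling that moved the median of all tested genes to -0.26; over 23 alternatives its adjusted p ran from 1.42e-05 to 0.0592.

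Khdc3 did not pass the test at late 2C. Its Duxbl libraries were at 9.62, 15.2, 1.03, 16.6 and 8.29 CPM and its mCherry libraries at 0.263 to 14.4 CPM (median 11.1). The 2 ranges overlapped nearly whole, and the difference was 0.1 ± 0.58 (adjusted p = 0.898), with a range of -0.45 to 0.63 over 23 alternative settings. Its standard error of 0.58, beside 0.29 to 0.32 for the other members, shows that it was measured less precisely, and the missed threshold does not show that its level was the same. Without the libraries numbered 4 and 5 the difference was 0.05 ± 0.36.

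**Figure D2:**
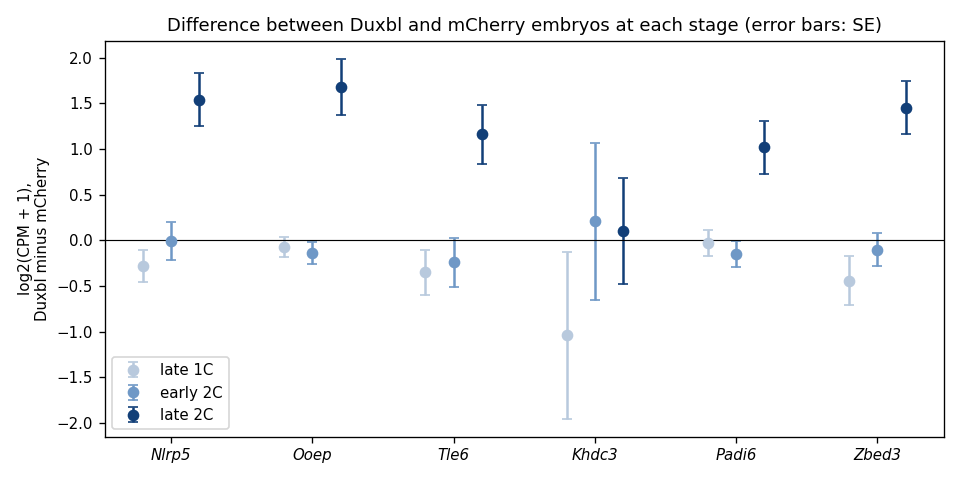
Difference between Duxbl and mCherry embryos for each member at the 3 stages, in log2(CPM + 1), with standard errors as bars. At late 2C, Nlrp5, Ooep, Tle6, Padi6 and Zbed3 sit between 1.02 and 1.68, and Khdc3 at 0.1.

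The Duxbl effect itself differed between early and late 2C for 5 of 6 members, beside 21.9% of tested genes with a higher and 44.9% with any called difference. This was the interaction in the fit of all 9 groups, and its values were 1.82 ± 0.29 for Ooep (adjusted p = 1.12e-06), 1.56 ± 0.33 for Nlrp5 (adjusted p = 0.000133), 1.54 ± 0.37 for Zbed3 (adjusted p = 0.000457), 1.4 ± 0.41 for Tle6 (adjusted p = 0.00441) and 1.17 ± 0.28 for Padi6 (adjusted p = 0.000514). For Khdc3 it was -0.12 ± 1.07 (adjusted p = 0.941).

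Within Duxbl embryos, 4 of 6 members still fell from early to late 2C, where 18.8% of tested genes fell and 39.2% were called. Ooep changed by -1.74 ± 0.22 (adjusted p = 4.71e-09) and Zbed3 by -1.26 ± 0.27 (adjusted p = 0.000152), to 29.6% and 43.3% of their early 2C means. Nlrp5 changed by -0.65 ± 0.25 (adjusted p = 0.0307) and Khdc3 by -2.05 ± 0.79 (adjusted p = 0.0337). The last 2 calls rested on few libraries: without Duxbl early 2C library 3 both were lost (Nlrp5 -0.55, adjusted p = 0.0997; Khdc3 -1.78, adjusted p = 0.0941). Nlrp5 also lost its call without late 2C library 1 (adjusted p = 0.0505), 6 (adjusted p = 0.053) or 7 (adjusted p = 0.154), and Khdc3 without early 2C library 6 (adjusted p = 0.0606) or late 2C library 4 (adjusted p = 0.144). The difference was -0.39 ± 0.3 (adjusted p = 0.329) for Tle6 and -0.38 ± 0.21 (adjusted p = 0.151) for Padi6, and neither was called. Padi6 was called lower without late 2C library 4 (-0.63, adjusted p = 0.008), without all libraries numbered 4 and 5 (-0.7, adjusted p = 0.0134) and on the deposited values with no further scaling (-0.51, adjusted p = 0.0433). The call of Nlrp5 was also lost with library totals (-0.56, adjusted p = 0.0733) and median-ratio size factors (-0.39, adjusted p = 0.215), and that of Khdc3 with median-ratio size factors (-1.82, adjusted p = 0.0591) and voom weights (-2.29, adjusted p = 0.0683). At late 2C the Duxbl means were 48.4 ± 16.1 CPM per kb for Nlrp5 and 44.8 ± 12.9 for Tle6, again within each other's spread, as at late 1C. The summed level of the 6 members was 3081 ± 679.9 CPM in Duxbl embryos at late 2C (n = 5), 1172 ± 395 CPM in mCherry embryos (n = 6) and 1172 ± 320 CPM in uninjected embryos (n = 6), after 6909.7 ± 766, 7439 ± 906 and 7059 ± 1770 CPM at early 2C.

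**Figure D3:**
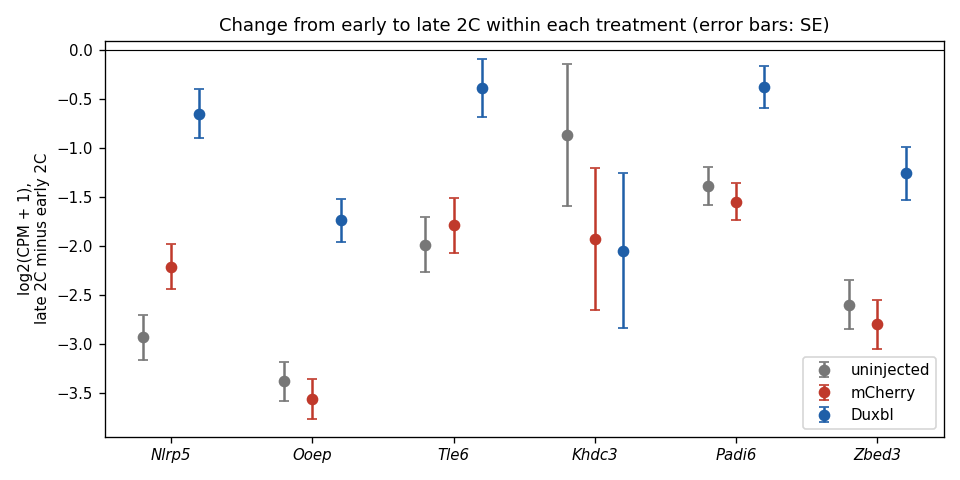
Change of each member from early to late 2C within each treatment, in log2(CPM + 1), with standard errors as bars. Ooep changes by -3.38 in uninjected, -3.56 in mCherry and -1.74 in Duxbl embryos, while the values of Khdc3 (-0.87, -1.93 and -2.05) have wide errors.

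At late 1C and early 2C, Khdc3 varied more between libraries of 1 group than any other member (coefficient of variation 77.6% in uninjected early 2C embryos, against 8.22% for Ooep), and its low libraries shared their numbers. Over the 33 late 1C and early 2C libraries, the 12 numbered 4 and 5 in the labels had 1.14 to 30.5 CPM of Khdc3 (median 6.84), and the other 21 had 23.8 to 91 CPM (median 43.7). The mean difference around the group means was -2.27 in log2(CPM + 1). The split by these numbers was made with the Khdc3 values known, so it is a description and no test. Within groups the separation was complete in 5 of the 6: in uninjected early 2C embryos libraries 4 and 5 were at 1.14 and 3.74 CPM and the other 4 at 35.7 to 61.8 CPM. The exception was Duxbl early 2C, where libraries 4 and 5 (25.1 and 30.5 CPM) lay inside the range of the other 3 (23.8 to 77.4 CPM). Zbed3 was lower in the same libraries, with a difference of -0.48, at 2404 to 5749.9 CPM (median 3923) against 3272 to 7605 CPM (median 5571). The other 4 members differed by -0.13 to 0.13. Libraries 4 and 5 were 2 of 4 in Duxbl late 1C embryos, 2 of 5 in Duxbl early 2C embryos and 2 of 6 in each uninjected and mCherry group. The part of this imbalance in the Khdc3 and Zbed3 levels of Duxbl late 1C embryos, and in their changes to early 2C, was not tested. What the numbers stand for is not given in the labels, so no batch is named here.

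**Figure D4:**
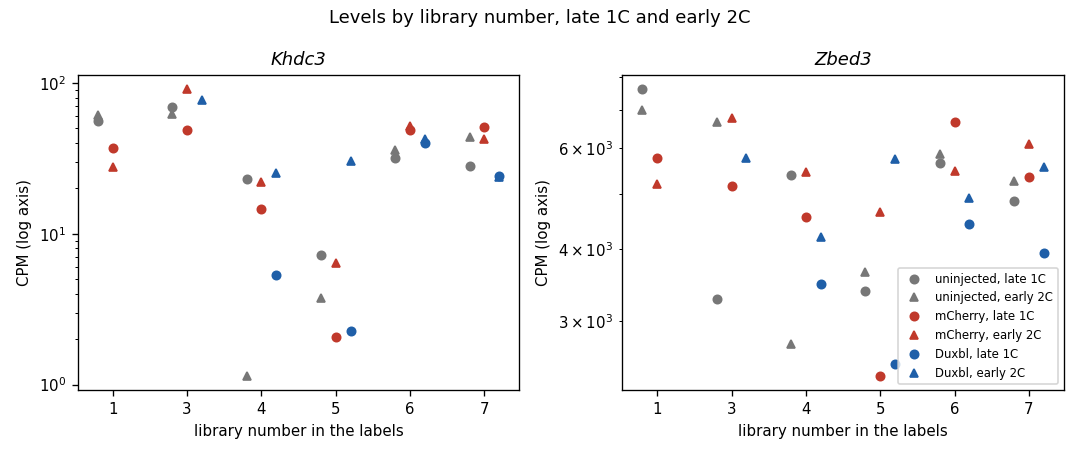
Levels of Khdc3 (left) and Zbed3 (right) in the 33 late 1C and early 2C libraries, in CPM on a log scale, against the library number in the labels. Circles are late 1C and triangles early 2C, coloured by treatment. Khdc3 lies at 1.14 to 30.5 CPM in libraries 4 and 5 and at 23.8 to 91 CPM in the others.

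Around their group means some members deviated together and others did not. Over the 50 libraries, deviations of Nlrp5 and Tle6 from their group means had a correlation of r = 0.8, those of Nlrp5 and Padi6 r = 0.63 and those of Tle6 and Padi6 r = 0.58. Khdc3 and Zbed3 deviated together with r = 0.73, while Khdc3 with Nlrp5 gave r = -0.04. Ooep gave lower values, with r = 0.38, 0.3 and 0.22 with Nlrp5, Tle6 and Padi6 and r = 0.2 and 0.18 with Zbed3 and Khdc3. These are descriptions over libraries that share scaling and depth. At late 2C, library 4 held the highest level of its group for Nlrp5, Tle6 and Padi6 under every treatment: 107, 90.8 and 114 CPM in uninjected, 92.1, 93 and 105 CPM in mCherry and 333, 205 and 296 CPM in Duxbl embryos. In Duxbl embryos that library was also the lowest for Khdc3 (1.03 CPM) and Zbed3 (1323 CPM). Without the libraries numbered 4 and 5 the difference between Duxbl and mCherry embryos at late 2C was 1.39 ± 0.31 for Nlrp5, 1.83 ± 0.21 for Ooep, 1.08 ± 0.34 for Tle6, 0.92 ± 0.28 for Padi6 and 1.44 ± 0.26 for Zbed3, and all 5 were still called.

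Nlrp5-ps, the pseudogene named because of its possible shared reads with Nlrp5, went the other way. It was at 26.5 to 49.6 CPM (median 37.3) in uninjected and 18.5 to 40.5 CPM (median 26.9) in mCherry embryos at late 2C, and at 9.38, 4.57, 8.14, 2.15 and 1.89 CPM in Duxbl embryos (-2.37 ± 0.36 against mCherry, adjusted p = 7.35e-06). At early 2C it was at 2.12 to 4.6 CPM over all 3 treatments. Reads of the 2 genes could be credited to either, and Nlrp5 was at 60.7 to 92.1 CPM in the mCherry libraries, of which a part may therefore be uncertain.

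Genes whose proteins join the complex or share the cytoplasmic lattices with it also fell in the controls, and most were higher with Duxbl. Of 8 such genes, 8 fell in uninjected embryos from early to late 2C, where 26.6% of all tested genes fell, with a median of -2.08 beside 0.02 for all tested genes. At late 2C, 5 of the 8 were higher in Duxbl than in mCherry embryos and 1 was lower, where 26.8% of tested genes were higher and 55.9% were called, with a median of 1.4 beside -0.05 for all genes. Skp1, an adaptor of ubiquitin ligases, averaged 1266 CPM in Duxbl and 366 CPM in mCherry embryos (1.77 ± 0.18, adjusted p = 4.98e-08). Ube2d3, a ubiquitin-conjugating enzyme, averaged 1956 and 725 CPM (1.44 ± 0.19, adjusted p = 1.03e-06), and Nlrp14, an oocyte NLR protein, 1022 and 325 CPM (1.64 ± 0.25, adjusted p = 9.55e-06). The NLR genes Nlrp2 (1.69 ± 0.38, adjusted p = 0.000725) and Nlrp4f (207 CPM against 83.5 CPM, adjusted p = 0.000858) were also called higher. Cfl1, the actin-severing protein cofilin, was lower (-0.89 ± 0.32, adjusted p = 0.022). Uhrf1, which guides Dnmt1 to replicated DNA (0.65 ± 0.33, adjusted p = 0.0994) and the maintenance DNA methyltransferase Dnmt1 (0.11 ± 0.35, adjusted p = 0.797) were not called.

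Within Duxbl embryos 4 of these 8 genes fell from early to late 2C, where 18.8% of tested genes fell and 39.2% were called. Nlrp4f changed by -2.66 ± 0.23, Uhrf1 by -2.1 ± 0.22, Dnmt1 by -1.88 ± 0.29 and Cfl1 by -1.55 ± 0.24. Values near 0 were found for Nlrp2 (0.14 ± 0.28), Nlrp14 (0.11 ± 0.25), Skp1 (0 ± 0.15) and Ube2d3 (-0.06 ± 0.22), none of them called.

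**Figure D5:**
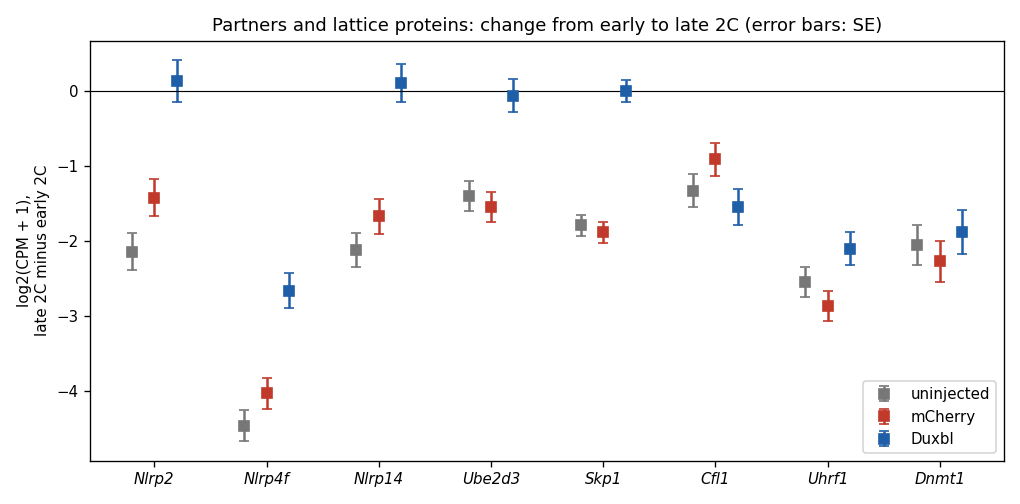
Change from early to late 2C of 8 genes whose proteins join the complex or the cytoplasmic lattices, in log2(CPM + 1), with standard errors as bars and colours for treatments. Nlrp2, Nlrp14, Ube2d3 and Skp1 sit between -0.06 and 0.14 in Duxbl embryos, and Nlrp4f, Cfl1, Uhrf1 and Dnmt1 between -2.66 and -1.55.

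A wider list of 34 maternal-effect and oocyte genes outside the complex gave 26 that fell and 5 that rose in uninjected embryos from early to late 2C, where 26.6% of tested genes fell and 56.9% were called, with a median of -2.11. Against mCherry at late 2C, 23 of the 34 were higher in Duxbl embryos and 4 were lower, where 26.8% of tested genes were higher and 55.9% were called, with a median of 1.54. Bmp15, a growth factor of the oocyte, was 2.55 ± 0.3 higher (adjusted p = 3.69e-07), Btg4, an adaptor for RNA deadenylation, 2.08 ± 0.23 higher (adjusted p = 1.38e-07), and Nlrp9c, an oocyte NLR gene, 2.04 ± 0.22 higher (adjusted p = 6.56e-08). Trim28, a co-repressor that the embryo also transcribes, was lower (-3.87 ± 0.31, adjusted p = 1.03e-09), and it had risen in uninjected embryos (1.59 ± 0.23). Pgam1, Ythdf2 and Sohlh1 were the other 3 that were lower, and each of them had risen in uninjected embryos by late 2C. All 6 egg markers given above, Bmp15 and Btg4 among them, are on this wider list, so those results are not separate.

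Relatives of the members by sequence family did not all follow them. Between Duxbl and mCherry embryos at late 2C, 26.8% of all tested genes were higher and 55.9% were called in either direction. Of the KH-domain relatives, Khdc1a (1.61 ± 0.24), Khdc1b (1.39 ± 0.21) and Khdc1c (1.52 ± 0.27) were higher in Duxbl embryos at late 2C and Dppa5a was lower (-1.54 ± 0.24), the gene that had risen in uninjected embryos (1.66 ± 0.19). Among 5 tested Tle genes, Tle1 (-2.28 ± 0.32), Tle4 (-1.34 ± 0.24) and Tle3 (-1.85 ± 0.4) were lower and 2 were higher, in contrast to Tle6. Padi4 (1.17 ± 0.48, adjusted p = 0.0417) was the 1 called gene of 4 other Padi genes, at 7.69 CPM in Duxbl and 2.44 CPM in mCherry embryos. Zbed5 was lower (-1.61 ± 0.32, adjusted p = 0.000178), opposite in sign to Zbed3, and Zbed4 was not called (0.65 ± 0.29, adjusted p = 0.0555). Of 7 oocyte transcription factors, 4 were higher, among them Nobox (1.64 ± 0.35, adjusted p = 0.000462), Lhx8 (1.65 ± 0.41, adjusted p = 0.00161) and Tbpl2 (3.15 ± 0.5, adjusted p = 1.49e-05), and Sohlh1 was lower (-3.31 ± 0.67, adjusted p = 0.000257). Figla was at 2.63 CPM in Duxbl and 1.77 CPM in mCherry embryos and was not called. This list shares genes, Sohlh1 among them, with the wider list of maternal-effect and oocyte genes above, so their results are not separate.

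The genes most like each member across the 50 libraries were found by Pearson correlation of log2(CPM + 1) among 9894 other genes with a mean of at least 10 CPM, as a description. High values were common over these libraries, which span stages and treatments: 25.5% of those genes had r above 0.8 with Ooep. Ooep was closest to Neil3 (r = 0.99), Ninj2 (0.989) and Wdr76 (0.989), and Nlrp5 to Cit (0.97), Gm8801 (0.966) and Nlrp9b (0.965). Tle6 was closest to Gja4 (0.927), Kcnk18 (0.923) and Cit (0.921), Padi6 to Csad (0.948), Stom (0.947) and Pms1 (0.941), and Zbed3 to Armc10 (0.953), Gm7368 (0.95) and Zfyve21 (0.95). Khdc3 stood apart, with 0.202% of genes above r = 0.8. Its closest genes were Shisa8 (0.892), Fam122a (0.891) and H1f0 (0.884). All of these were also lower in libraries 4 and 5 at late 1C and early 2C. Around the group means the difference in log2(CPM + 1) was -2.71 for Shisa8, -2.88 for Fam122a and -1.14 for H1f0, beside -2.27 for Khdc3. The part of those libraries in this likeness was not tested.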

How the data were processed

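Polyadenylated RNA of pooled mouse embryos was sequenced in 50 libraries. Per the labels' protocols, cDNA came from the SMART-Seq v4 kit and libraries from Nextera XT, which do not mark strand. The submitters' processing notes name mm39, DESeq2 1.36.0, featureCounts 2.0.4, STAR 2.7.10a, DESeq, Trimmomatic 0.39 and Picard 3.0.0, with no role or order. The deposited values are whole numbers that were treated as a score and not as raw reads, because 19 libraries lack some whole numbers between 1 and 20, which points to per-library scaling and rounding by the authors. In those 19 libraries 1 read was worth 1.058 to 1.975 units (13.2 to 24.4 M reads); for the others the depth was not settled, so no counting intervals were computed. No 2 libraries held identical values.

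A count test planned for raw counts was therefore replaced by its planned fallback, limma 3.58.1 in R 4.3.3 on log2(CPM + 1), with trended and robust variance. CPM used library totals times trimmed-mean factors over all 50 libraries (30% of ratios and 5% of abundances trimmed). Genes entered a fit with values of 10 or more in a number of libraries equal to the size of its smallest group. Contrasts between treatments came from a fit of the 3 groups of the stage, and changes between stages and the interaction from a fit of all 9 groups. Tests were two-sided, with Benjamini-Hochberg adjustment over all tested genes, called below 0.05. Errors after ± are standard errors for differences and SD for levels. The code was tested on simulated data. Scaling, pseudocount, filter, weights, replicate block, groups in the fit, control and libraries left out were varied.

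The members and gene lists were chosen with earlier results of these data known. Named genes were the 6 members, all partner and lattice genes, up to 4 called genes of each other list with the smallest adjusted p for the uninjected course and for Duxbl against mCherry at late 2C, the 3 closest genes of each member, and Duxbl1; Nlrp5-ps, marker genes given singly, further list genes given as exceptions, and Figla were named after their values were seen. Exon lengths came from the GENCODE annotation. Sequences were read from the RefSeq promoter table (GRCm38.p6). No protein sequence was used here.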

Additional observations from a re-analysis of the deposited data

Results flagged for a closer look

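In 54 groups of member values, 3 held a library far from the rest, and chance flags about 1 in 20 groups. Ooep in uninjected embryos at late 2C was at 214 CPM in library 4, while the other 5 libraries were at 62.9 to 77.5 CPM. In mCherry embryos at late 2C it was at 189 CPM in the library of the same number, with the others at 55.1 to 90.3 CPM. Tle6 in Duxbl embryos at late 1C was at 456 CPM in library 4, with the others at 185 to 224 CPM.

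The Duxbl effect against mCherry differed between late and early 2C, by the interaction test, for 5 of 6 members. Of all tested genes, 21.9% had a called higher effect at late 2C and 44.9% were called in either direction. The difference in log2(CPM + 1) was 1.82 for Ooep, 1.56 for Nlrp5, 1.54 for Zbed3, 1.4 for Tle6 and 1.17 for Padi6.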

How the results depend on the processing

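Over settings other than leaving out single libraries, 785 of 798 single-member values kept their side of the threshold, some uncalled ones with a changed sign, 128 of 133 counts of called members stayed within 1.5 times, and 5 counts moved. From early to late 2C in Duxbl embryos, median-ratio size factors left 2 members called in place of 4. From late 1C to early 2C, a fit of the compared groups called 2 members in mCherry embryos (Nlrp5 added, lower) and 2 in Duxbl embryos (Zbed3 added, higher) in place of 1, and leaving out libraries 4 and 5 left 0 in uninjected and 0 in Duxbl embryos; the cause was not tested. Leaving out single libraries kept 156 of 157 counts, and the count from early to late 2C in Duxbl embryos ranged from 2 to 4, with 2 reached without Duxbl early 2C library 3. At late 2C, Duxbl against mCherry called 5 members under each other setting except library totals, which called 4. The median of all genes there was -0.05, and -0.26 with library totals or voom weights, -0.19 with a pseudocount of 0.1 CPM, and -0.15 with trimmed-mean factors from the stage alone, an alternative chosen after seeing the data. Khdc3, never called there, changed sign with library totals (-0.13), the block (-0.21) and uninjected controls (-0.29). Values near or below 1 CPM in some single Khdc3 libraries limit its precision.

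Library numbers were not taken as pairs. Of 93 pairs of libraries with the same number in different groups of a stage or of a treatment, 45 had deviations from their group means correlated above 0.1 (range -0.12 to 0.36): 11 of 14 across treatments at late 1C (median 0.23), 13 of 16 at early 2C (median 0.19) and 4 of 16 at late 2C, and 28 of 50 libraries were closest to their own number. With the number as a replicate block, Duxbl against mCherry at late 2C still called 5 members, with Ooep at 1.59 and Nlrp5 at 1.48, and no count of called members changed by over 1.5 times in any comparison.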
